A study of Mus musculus with 96 samples.

Results

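RAW 264.7, an established mouse line with macrophage properties, was exposed for 1 h to bacterial lipopolysaccharide (LPS) together with interferon gamma (IFNG), and its RNA was read against RNA of untreated cells on 2-colour arrays. The members are the 6 arrays that the labels give to this treatment and time, out of 96 arrays in the series, and they form 3 numbered sets. Each set has 1 array with the treated RNA in Cy5 and 1 with it in Cy3. The groups compared here are LPS with IFNG at 1 h, at 2 h and at 4 h, LPS alone at 1 h and IFNG alone at 1 h. Each has 6 arrays in 3 sets, and every array carries untreated cells of its own time in the other dye. LPS was given as 100 ng, a figure the labels leave without a volume, with LPS-binding protein at 100 pM. IFNG was given at 5 nM. All groups are the same cell line, with no gene altered and no animals. P-values rest on the spread between sets of 1 group, pooled over the 16 groups of the series, and not on these 3 sets alone. The labels do not say whether the sets were separate cultures, so this spread may be technical. Groups not compared here, at other times or with 2-methyl-thio-ATP alone or added to LPS, entered only this spread and the filter of probes.

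LPS is recognised by Toll-like receptor 4, whose adaptors switch on NF-kB and MAP kinases within minutes. The first genes to answer are immediate early transcription factors, cytokines and the inhibitors that later shut the signal off. IFNG binds its own receptor, which signals through JAK kinases, and genes such as Irf1 carry short DNA sites named gamma-activated sites (GAS). In macrophages the pair of ligands is the classical activating stimulus, and IFNG is long known to prime cells for LPS.

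Values are log2 ratios of treated over untreated RNA, so that 1 unit is a change of 2-fold, and a set value is the mean of both dye orders. Each of the 6 arrays gave between 13508 and 14797 values. Before the sign was turned, arrays of opposite dye order in 1 set correlated at -0.26, -0.30 and -0.14 across genes, while arrays of the same dye order correlated at 0.46 to 0.84, so part of the values kept its sign when the dyes were swapped. After the sign was turned and the dye orders averaged, the 3 sets correlated with each other at 0.790, 0.692 and 0.666 across genes, which are not independent replicates. The largest value in the table is log2 of 100, and the set 3 array with treated RNA in Cy5 sat on it for Cxcl9 and Egr2, which may be a ceiling. Of the macrophage markers 6 were tested and none passed the test, beside 7.62% of all features that did. Ratios give no level that would show the cell type itself.

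Of 11593 features tested, 883 (7.62%) differed from untreated at an adjusted p under 0.05 in limma, 513 (4.43%) upwards and 370 (3.19%) downwards. Rises were larger than falls: 196 features rose and 18 fell by at least 2-fold. Of the 883, 842 had a value on all 6 arrays, and 665 had the same sign on all 6. The median of all features was -0.0051. Without set 1, 445 were called. The array RNA is from bulk cells, so a response of fewer cells and less RNA per cell cannot be told apart.

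The strongest rise was that of Cxcl9, a chemokine that draws activated T cells and is a textbook IFNG target. Its set values were 5.35, 4.53 and 5.62, a mean of 5.17 ± 0.57 (SD, n = 3), with an adjusted p of 1.98e-27 in limma. All sets lay above 4, and the lowest single array read 4.35. Nfkbiz, which encodes the nuclear NF-kB cofactor I-kappa-B zeta, rose by 5.04 ± 0.60 (SD, n = 3). Egr2 (4.79 ± 0.99, SD, n = 3) and Egr1 (4.63 ± 1.26, SD, n = 3), zinc-finger transcription factors of the immediate early class, were as high on average but more scattered, with set 2 the lowest and set 3 the highest for each. Egr1 read 4.61, 3.39 and 5.90 in sets 1, 2 and 3. Phlda1, a pleckstrin-domain gene induced by many stimuli, was tighter at 4.67 ± 0.31 (SD, n = 3).

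The next rises joined genes of different roles. Cd83 (4.25 ± 0.44) is a surface marker of activated antigen-presenting cells and Cd40 (3.46 ± 0.12) the receptor through which T cells help them. Btg2 (4.22 ± 0.46) takes part in mRNA deadenylation, and Dusp1 (3.54 ± 0.35) is the phosphatase that turns off p38 and JNK. F3 (4.15 ± 0.38) is tissue factor, the starter of coagulation. Irf1 (3.87 ± 0.62), Tgtp1 (3.70 ± 0.35) and Irgm2 (3.59 ± 0.16) belong to the IFNG response, while Tnf (3.39 ± 0.84) is the central early cytokine of LPS and Pde4b (3.47 ± 0.39) a cAMP phosphodiesterase (all SD, n = 3). The rule that named these 15 leading rises required a value above 0 on all 6 arrays. The lowest array value among them was 2.37, for Dusp1.

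**Figure D1:**
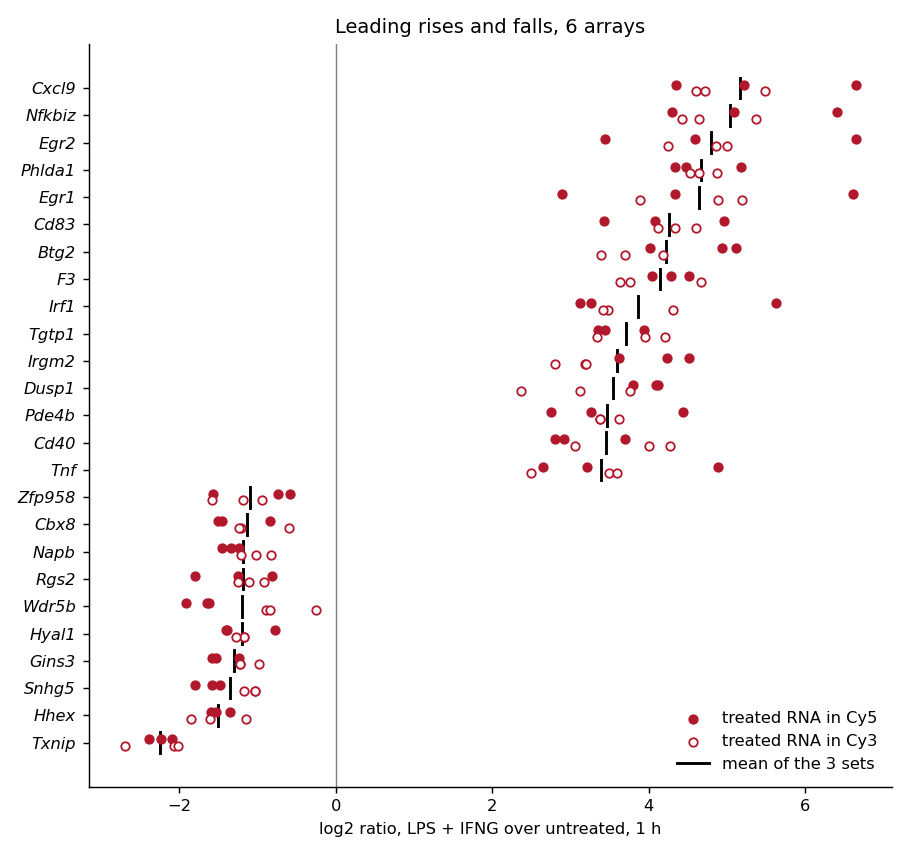
Log2 ratio of LPS with IFNG over untreated at 1 h for the 15 leading rises and 10 leading falls, with 1 point per array, filled for treated RNA in Cy5 and open for treated RNA in Cy3, and a bar at the mean of the 3 sets. Rises reach 5.17 for Cxcl9, falls stop at -2.25 for Txnip, and no point crosses 0.

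Falls were smaller. Txnip, the inhibitor of thioredoxin that also restrains glucose uptake, fell most, with set values of -2.22, -2.06 and -2.46 (mean -2.25 ± 0.20, SD, n = 3, adjusted p = 8.02e-11 in limma). It stood apart from the second, Hhex, a homeobox repressor, at -1.51 ± 0.23 (SD, n = 3). Snhg5, the host gene of small nucleolar RNAs, followed at -1.35 ± 0.12 (SD, n = 3). Gins3, a subunit of the GINS complex of DNA replication, read -1.29, and the lysosomal hyaluronidase Hyal1 read -1.20. Wdr5b, Rgs2, Napb, Cbx8 and Zfp958 lay between -1.19 and -1.10. Rgs2 is a regulator that speeds the turn-off of G proteins, and Cbx8 is a Polycomb protein. Among genes whose symbol begins with Zfp, most of them zinc-finger proteins, 22 of 88 tested fell and 5 rose. This family was chosen after its values were seen. Its median was -0.1406, against -0.0051 for all features, and 3.19% of all features fell.

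Of the early response transcription factors, 13 of 19 tested members rose and none fell, with a median of 1.39. Among all features, 4.43% rose and 3.19% fell. Besides the Egr genes, Atf3, a repressor induced by stress and Toll-like receptors, rose by 3.06 ± 0.22 (SD, n = 3). Myc, a growth-promoting factor, rose by 2.08 ± 0.23, the AP-1 subunits Fosl1 by 1.83 ± 0.34, Jund by 1.46 ± 0.18 and Jun by 1.05 ± 0.08, and Klf6 by 1.51 ± 0.36 (all SD, n = 3). Nr4a1, an orphan receptor of the same class, read 0.79 and did not pass the test. Genes that damp MAP kinases or destabilise mRNA rose in 12 of 15 tested members, none fell, and their median of 2.06 was higher. Zfp36, tristetraprolin, which binds and destabilises cytokine mRNAs, rose by 3.76 (2 sets). Dusp2, a nuclear MAP kinase phosphatase, rose by 2.57 ± 0.79 and Ier3 by 2.43 ± 0.53 (SD, n = 3). Ppp1r15a, the phosphatase subunit that restores translation after stress, rose by 2.23 ± 0.64 and Gadd45b by 2.06 ± 0.16 (SD, n = 3). Tested on their own, the 2 probes of Dusp2 read 4.51 and 1.55, and each set value used the probes that had a value.

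In the NF-kB family and its feedback, 12 of 15 tested members rose and 1 fell, with a median of 0.89. Among all features, 4.43% rose and 3.19% fell. Nfkbiz led the list at 5.04. Bcl3 rose by 2.39 ± 0.46 and Traf1 by 2.32 ± 0.22 (SD, n = 3). Birc3 rose by 2.13 ± 0.26 and Tnfaip3, the ubiquitin-editing enzyme A20, by 2.07 ± 0.76 (SD, n = 3). The subunits themselves rose less, Relb by 1.22, Rel by 1.11 and Rela by 0.69. The member that fell was Otud1, a deubiquitinase, at -1.03 ± 0.39 (SD, n = 3), and without set 1 it read -0.89 and did not pass. Of the cytokines and chemokines, 12 of 22 tested rose and none fell, with a median of 0.92. Besides Cxcl9 and Tnf, the chemokine Ccl4 rose by 3.04 (2 sets), the interleukins Il1a by 2.41 ± 0.31, Il1b by 2.29 ± 0.54 and the anti-inflammatory Il10 by 1.46 ± 0.53, and the 4-1BB ligand Tnfsf9 by 1.89 ± 0.36 (SD, n = 3). Il6, an interleukin of the acute phase, stood at 0.33 ± 0.27 (SD, n = 3) and did not pass.

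Regulators of the first IFNG wave rose in 10 of 16 tested members and none fell, with a median of 1.40. Among all features, 4.43% rose and 3.19% fell. Irf1, the transcription factor that carries the IFNG signal on, had set values of 3.78, 3.30 and 4.52. Socs1, the inhibitor of JAK kinases, rose by 3.15 ± 0.58. Cd274, the gene of the T cell inhibitory ligand PD-L1, rose by 3.07 ± 0.16, the kinase Pim1 by 2.96 ± 0.16, and the transcription factors Irf8 by 2.90 ± 0.31 and Batf2 by 2.81 ± 0.43 (all SD, n = 3). Cish, another SOCS-family inhibitor, rose by 2.06 ± 0.32 and Stat3 by 1.70 ± 0.05 (SD, n = 3). Socs3 (-0.05) and Ciita (0.05), the master regulator of MHC class II, did not pass the test.

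Guanylate-binding proteins and immunity-related GTPases, which attack the vacuoles of intracellular microbes, had the highest median of all lists, 3.10: 6 of 7 tested members rose and none fell. Besides Tgtp1 and Irgm2 these were Gbp3 (3.12 ± 0.70), Iigp1 (3.10 ± 0.35), Igtp (2.67 ± 0.16) and Gbp8 (1.78 ± 0.36, all SD, n = 3). Gbp4 read 0.22. The 2 probes of Tgtp1 read 4.84 and 2.57, and the gene has the close copy Tgtp2, so its value may hold both.

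The 250 bases before the start of 6 genes of the response are printed to show where the letters of known binding motifs stand in genes led by IFNG, by both ligands and by LPS. They come from the first RefSeq promoter window of each gene on build GRCm38.p6, 5′ to 3′ on the strand of the gene, and capitals mark the motif letters searched. The motifs were GAS (TTCNNNGAA), the interferon-stimulated response element ISRE (TTTC, 2 free bases, TTTC), a kappaB site (GGG, 2 free bases, TT, 1 free base, CC), the serum response CArG box (CC, 1 free base, TAT, 2 free bases, GG) and the cAMP response element CRE (TGACGTCA), each on both strands.
Irf1, chr11:53769764-53770013, plus strand: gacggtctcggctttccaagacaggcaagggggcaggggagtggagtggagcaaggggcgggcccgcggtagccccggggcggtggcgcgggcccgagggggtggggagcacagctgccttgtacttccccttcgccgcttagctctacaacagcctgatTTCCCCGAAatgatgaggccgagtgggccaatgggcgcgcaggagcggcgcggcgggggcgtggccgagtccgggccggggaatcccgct
Irgm2, chr11:58214727-58214976, plus strand: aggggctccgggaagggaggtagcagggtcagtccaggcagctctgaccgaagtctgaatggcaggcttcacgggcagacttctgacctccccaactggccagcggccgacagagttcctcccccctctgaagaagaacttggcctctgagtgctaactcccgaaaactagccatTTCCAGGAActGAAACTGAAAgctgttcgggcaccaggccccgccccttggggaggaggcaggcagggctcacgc
Igtp, chr11:58199306-58199555, plus strand: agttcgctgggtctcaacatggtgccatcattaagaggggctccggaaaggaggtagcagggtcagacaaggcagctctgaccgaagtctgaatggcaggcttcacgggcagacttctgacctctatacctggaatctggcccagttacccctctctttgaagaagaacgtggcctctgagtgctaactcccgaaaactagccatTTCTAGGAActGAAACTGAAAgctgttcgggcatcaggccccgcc
Tgtp1, chr11:48992247-48992496, minus strand: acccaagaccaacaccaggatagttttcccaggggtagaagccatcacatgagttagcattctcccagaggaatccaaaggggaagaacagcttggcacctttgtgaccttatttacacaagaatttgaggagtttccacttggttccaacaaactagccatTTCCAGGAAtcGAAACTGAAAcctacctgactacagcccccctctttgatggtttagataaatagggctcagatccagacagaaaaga
Cxcl9, chr5:92328080-92328329, minus strand: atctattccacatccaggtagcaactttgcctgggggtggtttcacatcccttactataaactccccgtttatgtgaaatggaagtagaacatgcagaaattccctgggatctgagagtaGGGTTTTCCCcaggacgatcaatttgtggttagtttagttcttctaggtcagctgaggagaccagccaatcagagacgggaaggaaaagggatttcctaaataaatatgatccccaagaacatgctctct
Btg2, chr1:134079156-134079405, minus strand: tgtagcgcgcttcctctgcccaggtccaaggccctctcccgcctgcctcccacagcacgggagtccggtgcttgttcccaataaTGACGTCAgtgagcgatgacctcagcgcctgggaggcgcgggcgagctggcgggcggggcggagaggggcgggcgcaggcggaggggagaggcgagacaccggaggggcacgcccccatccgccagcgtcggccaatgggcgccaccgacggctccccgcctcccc

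In Irf1 the capitals are a GAS whose first base lies 90 bases before the start. Irgm2, Igtp and Tgtp1 share 1 layout: a GAS at 75, 45 and 88 bases before the start, then 2 bases, then an ISRE read on the other strand. This arrangement, defined from these 3 genes after they were seen, stood in 5 of 27025 promoters, those of Igtp, Irgm2, Tgtp1, Tgtp2 and Gm12185. The printed windows of Irgm2 and Igtp are alike over long stretches, and Tgtp2 is a close copy of Tgtp1. The 5 are therefore not independent occurrences. Cxcl9 held a kappaB match at 130 bases before the start, and Btg2, a gene led by LPS, a CRE at 166. A match is a description of letters and not evidence of binding.

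Of the named genes that rose, 353 of 457 had a promoter window of 300 bases, and 11.3% of these held a GAS, 7.93% an ISRE, 6.52% a kappaB, 1.42% a CArG and 3.12% a CRE match. Of all 27025 promoters, 8.47%, 3.49%, 4.71%, 1.53% and 1.88% held them. Of the named genes that fell, 248 of 306 had a window, with 7.26% for GAS, 0.806% for ISRE, 5.24% for kappaB, 0.806% for CArG and 3.23% for CRE. Of the named genes tested, 7757 of 9755 had a window, and 7.27%, 3.21%, 4.98%, 1.55% and 2.51% of these held the motifs in the same order. GAS and ISRE letters can share bases, and did in 21 of the 139 windows that held both.

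Targets of type I interferon rose in 11 of 17 tested members and none fell, with a median of 1.13. Ifit3 rose by 2.83 (2 sets), Ifit1, which binds foreign 5′ RNA ends, by 2.12 ± 0.18, Ifi204 by 2.08 ± 0.21, the ubiquitin-like Isg15 by 1.87 ± 0.59 and the GTPase Mx2 by 1.48 ± 0.19 (SD, n = 3). Ifnb1, the type I interferon itself, rose by 1.48 in the 2 sets that measured it, 1.66 in set 1 and 1.29 in set 3, and without set 1 it did not pass. Of 16 tested members of antigen presentation 3 rose, beside 4.43% of all features: the surface molecules Cd83 and Cd40 and the peptide transporter Tap1 (1.25 ± 0.25, SD, n = 3), none fell, and the median was 0.20. Without set 3, 5 rose.

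Of 19 antimicrobial and metabolic effectors tested, 7 rose and none fell, with a median of 0.09, and without set 1 only 4 rose. F3, the prostaglandin synthase Ptgs2 (2.35 ± 0.51) and the mitochondrial superoxide dismutase Sod2 (1.23 ± 0.25, SD, n = 3) were among them. The inducible nitric oxide synthase Nos2 read 0.29 ± 0.15 (SD, n = 3) and did not pass. Tested on their own, its probes read 0.42, which passed (adjusted p = 0.0113 in limma), and 0.16, which did not. Of 17 genes of survival and death, 8 rose and none fell, with a median of 0.29, among them the caspase-8 inhibitor Cflar (2.04 ± 0.25), the death receptor Fas (1.74 ± 0.30) and the pro-death Bcl2l11 (1.63 ± 0.31) and Pmaip1 (1.44 ± 0.42, all SD, n = 3). Of 16 receptors and proximal signalling genes, 7 rose and 1 fell, with a median of 0.25, and without set 1 there were 4 and 0. The shares over all features, beside which the lists of this paragraph stand, were 4.43% up and 3.19% down. Tnfrsf1a, the TNF receptor, rose by 1.72 ± 0.34 and Myd88, the adaptor of Toll-like receptors, by 0.89 ± 0.14 (SD, n = 3). Tlr4, the LPS receptor, fell by 0.59, a mean of set values in which each set used the probes that had a value. Tested on their own, its 3 probes read -0.73, -0.77 and 0.04, and the gene did not pass without set 1 (-0.64) or without set 2 (-0.44).

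Of 17 genes linked to G proteins and calcium, 7 rose and 1 fell, with a median of 0.21. Pde4b, the kinase Sgk1 (2.61 ± 0.51), the receptors Gpr84 for medium-chain fatty acids (2.36 ± 0.25) and Ltb4r1 for leukotriene B4 (1.92 ± 0.34), and Crem (2.18 ± 0.09, SD, n = 3) rose, and Rgs2 fell. The list named for Id, Bcl6 and TGF-beta linked repressors does not hold Bcl6. It also holds genes that are not repressors, such as the receptor Cnr2. Of its 16 tested members 6 rose and 3 fell, with a median of 0.21, and without set 1 only 2 rose. Those that fell were Txnip, Cnr2, the cannabinoid receptor of immune cells (-0.98 ± 0.15), and the glucocorticoid-induced Tsc22d3 (-0.99 ± 0.41, SD, n = 3), which read -0.77 and did not pass without set 1. Housekeeping genes gave no call among 10 tested (median -0.02), and macrophage surface and lysosome genes 1 of 20, the Fc receptor Fcgr3 (0.71 ± 0.22, SD, n = 3). Of all features 7.62% were called, and counts this near that share say nothing particular about these lists.

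In genes of growth and metabolism the changes that passed were small, all under 1 unit. In sterol and lipid synthesis 3 of 11 rose, Idi1 (0.55), Cyp51 (0.53) and Sc5d (0.46), and none fell, with a median of 0.0038, beside 4.43% of all features that rose. Without set 1 only 1 rose, and Cyp51 read 0.58 and Sc5d 0.42. In glycolysis and hypoxia 4 of 12 rose, the glucose transporter Slc2a1 (0.74), the growth factor Vegfa (0.73), the hexokinase Hk2 (0.60) and Hif1a (0.44), none fell, and the median was -0.02. Without set 1, and likewise without set 2, only 1 of them passed: Slc2a1 then read 0.72 and 0.595, Vegfa 0.70 and 0.59, Hk2 0.51 without set 2, and Hif1a 0.40 without set 1 and 0.38 without set 3. Of all features 4.43% rose and 3.19% fell. In the cell cycle 1 of 21 rose, the inhibitor Cdkn1a (0.56), and 2 fell, Cdkn1b (-0.48) and Ccne2 (-0.32), with a median of -0.08. None of these 3 passed without set 1, where they read 0.57, -0.55 and -0.40, and Cdkn1b (-0.43) and Ccne2 (-0.16) did not pass without set 2. Neither passed with arrays scaled, at -0.44 and -0.26. Among markers of other cell types 1 of 23 tested rose, the T cell marker Cd4 (0.49 ± 0.09, SD, n = 3), 1 of whose probes read 0.05, and none fell. The medians of the 6 marker lists lay between -0.03 and 0.10, and their part in the results was not tested.

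**Figure D2:**
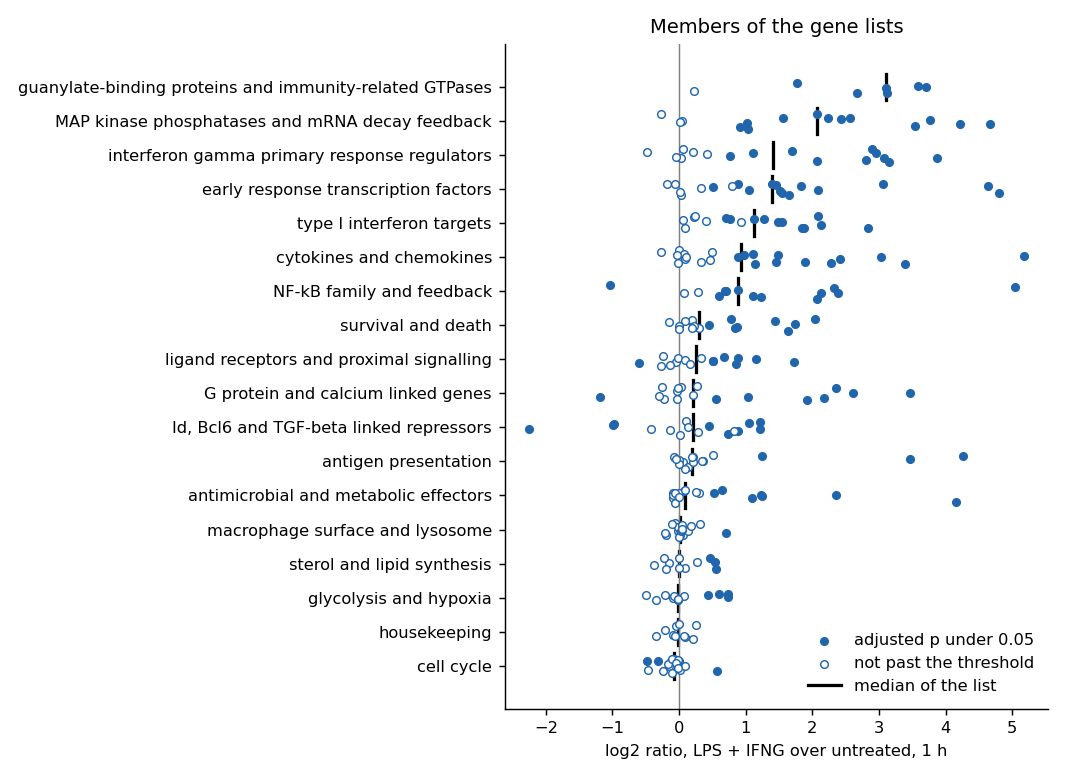
Log2 ratio of LPS with IFNG over untreated at 1 h for every tested member of 18 gene lists, 1 point per gene, filled where the adjusted p was under 0.05, with a bar at the median of each list. Guanylate-binding proteins and immunity-related GTPases lead with a median of 3.10, while housekeeping genes gather around 0.

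Against LPS alone at 1 h, the question was what IFNG added. Of all features 117 (1.01%) differed, 112 (0.966%) higher and 5 (0.0431%) lower with both ligands, and without set 1 there were 67. Both comparisons with a single ligand share the joint arrays. The largest difference was in Cxcl9, which read 5.35, 4.53 and 5.62 with both ligands against 0.03, -0.04 and 0.09 with LPS, a difference of 5.14 ± 0.19 (SE, adjusted p = 5.53e-22 in limma). The groups did not overlap. Irgm2 averaged 3.59 ± 0.16 with both ligands, against -0.28 ± 0.07 with LPS (SD, n = 3 each), and Irf1 averaged 3.87 ± 0.62 against 0.60 ± 0.39 with LPS (SD, n = 3 each). Tgtp1, Iigp1, Cd274, Irf8 and Batf2 followed with differences of 3.68, 3.39, 3.16, 3.14 and 2.92. The rule that named these 8 genes required a higher value in all 3 sets.

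By role, the IFNG regulators had 8 of 16 members higher with both ligands than with LPS and 1, Bcl6, lower (median 0.84), and the GTPases 6 of 7 higher (median 2.84). Of the type I interferon targets 6 of 17 were higher (median 0.92), such as Ifi204 by 1.66 and Trim21, an antibody receptor of the cytosol, by 1.64. The median over all features was 0.0017, and 0.966% of them were higher and 0.0431% lower. Of the LPS-led lists, early response factors had 1 of 19 higher (median 0.01), MAP kinase phosphatases and mRNA decay genes had none of 15 (median 0.04), and the NF-kB list had 2 of 15 (median -0.05). Those 2 were Bcl3, by 1.37, and Birc3, by 0.97, the second of which read 0.76 and did not pass with arrays scaled. The early factor was Atf3, by 1.26 ± 0.20 (SE, adjusted p = 8.18e-05 in limma), and with arrays scaled to 1 spread this difference was 0.87 and did not pass. Cd40 was higher by 1.86 with both ligands, and neither the 1.76 without set 3 nor the 1.64 with arrays scaled passed. Pmaip1 read 1.19, 1.21 and 1.92 with both ligands, against -0.21, -0.13 and 0.34 with LPS, a difference of 1.44 (adjusted p = 0.000299 in limma).

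Of the 5 features lower than with LPS, 4 had a gene name. Bcl6, a repressor of inflammatory genes, read -0.32, -0.72 and -0.39 with both ligands, against 0.70, 0.77 and 0.66 with LPS, a difference of -1.19 (adjusted p = 0.0104 in limma). With IFNG alone it averaged -0.88 ± 0.08 (SD, n = 3), so that the joint value lay between those of the single ligands. Tsc22d1, a TGF-beta induced leucine zipper gene, averaged 0.51 ± 0.05 with both ligands and 1.64 ± 0.10 with LPS (SD, n = 3 each). Bbs10, a chaperonin-like gene of the cilium, differed by -0.92 and 1700017B05Rik by -0.61. Of these differences, those of Bcl6 (-1.27), Tsc22d1 (-1.13), Bbs10 (-0.91) and 1700017B05Rik (-0.56) did not pass without set 1. Without set 2 those of Bcl6 (-1.04) and 1700017B05Rik (-0.59) did not, and without set 3 those of Tsc22d1 (-1.10), Bbs10 (-0.75) and 1700017B05Rik (-0.68).

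Of the named genes higher with both ligands than with LPS, 73 of 98 had a promoter window. GAS letters stood in 13 of them (17.8%), those of Cish, Igtp, Irf1, Irf8, Irgm2, Myd88, Samhd1, Sgk1, Slc28a2, Sod2, Tceanc2, Tgtp1 and Tnfrsf1a. ISRE letters stood in 14 (19.2%) and kappaB letters in 7 (9.59%). Igtp, Irgm2 and Tgtp1, which share a layout, count for both GAS and ISRE and are not independent of each other. The shares over all promoters are those given above, and no test was made.

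Against IFNG alone at 1 h, which asks what LPS added, 292 features (2.52%) differed, 209 (1.8%) higher and 83 (0.716%) lower with both ligands. With the set number as a block there were 506, without set 1 there were 113 and without set 2 there were 161. The genes with the largest positive differences were LPS targets. Phlda1 averaged 4.67 ± 0.31 with both ligands, against 0.11 ± 0.28 with IFNG (SD, n = 3 each), and Egr1, Nfkbiz, Btg2 and Egr2 were higher by 4.54, 4.48, 4.32 and 3.97.

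Dusp1 and Myc differed from these in that they read below 0 with IFNG alone in all 3 sets, which was not tested. Dusp1 read 3.46, 3.24 and 3.93 with both ligands, against -0.98, -0.93 and -1.03 with IFNG. Myc read 1.99, 2.35 and 1.91 with both ligands, against -1.50, -1.06 and -1.73 with IFNG, and averaged 2.84 ± 0.27 with LPS alone (SD, n = 3), which the joint value did not differ from by the test (difference -0.76 ± 0.33, SE, adjusted p = 1 in limma). Tgif1, a repressor of TGF-beta signalling, had a like order, with 0.73 ± 0.04 with both ligands, 1.24 ± 0.17 with LPS and -0.80 ± 0.15 with IFNG (SD, n = 3 each). F3 was higher than with IFNG by 3.64.

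By role, 11 of 19 early response factors were higher with both ligands than with IFNG (median 1.14), as were 11 of 15 MAP kinase phosphatases and decay genes (median 1.29), 9 of 15 NF-kB genes (median 0.93) and 9 of 22 cytokines (median 0.73). The median over all features was -0.0013, and 1.8% of them were higher and 0.716% lower. Of the GTPases 1 of 7 was higher (median 0.50): Gbp3 by 1.32, or by 1.17 without set 1, where it did not pass, and by 0.75 with arrays scaled, where it did not pass either. None of the lists named in this paragraph had a lower member. Among the genes lower with both ligands than with IFNG, Txnip differed by -2.08, Snhg5 by -1.26, Cnr2 by -1.12 and Hhex by -1.08, and the last of these read -1.02 and did not pass without set 1. Sfi1, a centrosome protein, differed by -1.22: it averaged -0.47 ± 0.12 with both ligands, -1.73 ± 0.31 with LPS and 0.75 ± 0.15 with IFNG (SD, n = 3 each).

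**Figure D3:**
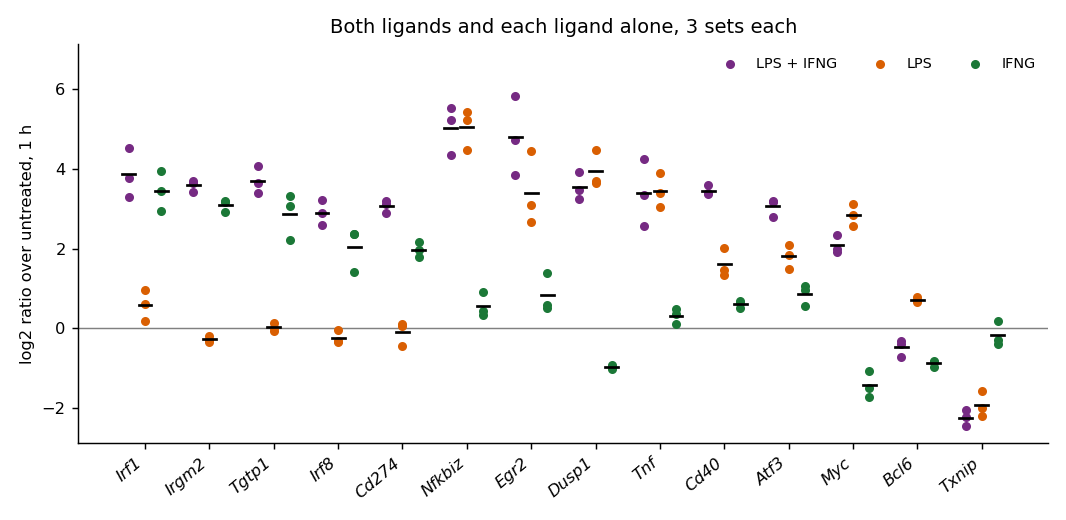
Log2 ratio over untreated at 1 h for 14 genes in LPS with IFNG, LPS alone and IFNG alone, from left to right within each gene, with 1 point per set and a bar at the mean. Irf1, Irgm2, Tgtp1, Irf8 and Cd274 average between -0.28 and 0.60 with LPS, Nfkbiz, Egr2, Dusp1 and Tnf are high with LPS, and Bcl6 is -0.48 with both ligands, 0.71 with LPS and -0.88 with IFNG.

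The joint response was also set against the sum of the LPS and IFNG responses on the log2 scale, where a sum means that the folds multiply. Of all features 9 (0.0776%) departed from the sum, all upwards, and 192 had an unadjusted p under 0.05, 121 above and 71 below the sum. The 192 are a smaller share of all features than the 0.05 that chance alone would give, and why was not tested. This fit treated the sets of the compared groups as unlinked, though same-numbered sets deviated together. The fit with the set number as a block called 24, of which 19 were above the sum. With arrays scaled, 5 of 6 calls (83.3%) were above the sum. Across the other alternatives the share above the sum ran from 79.2% with the block to 100%.

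Sgk1, a serum- and glucocorticoid-regulated kinase, had the largest measured departure, close to that of Cxcl9, whose joint value met the possible ceiling on 1 array. It read 2.31, 2.32 and 3.19 with both ligands, against -0.10, -0.04 and 0.13 with LPS and -0.06, 0.01 and -0.30 with IFNG. The values with either ligand alone lay around 0, far below the joint ones, and the departure was 2.73 ± 0.43 (SE, adjusted p = 0.000399 in limma). Cxcl9 departed by 2.67 ± 0.23 (SE, adjusted p = 9.49e-10 in limma): LPS alone left it at 0.03 ± 0.07, and IFNG alone gave 2.48 ± 0.11, 2.69 under the joint value (SD, n = 3 each). F3 averaged 4.15 ± 0.38 with both ligands, 1.42 ± 0.17 with LPS and 0.50 ± 0.31 with IFNG (SD, n = 3 each), a departure of 2.22.

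The chemokine Ccl12 read 2.72, 2.90 and 2.88 with both ligands, against 0.15, 0.16 and 0.07 with LPS and 0.77, 0.71 and 0.60 with IFNG. Its groups were far apart and tight, and the departure was 2.01 ± 0.28 (SE, adjusted p = 4.36e-05 in limma). Crem, a cAMP-responsive transcription factor, departed by 1.28. Atg16l1, an autophagy protein that also guides GTPases to microbial vacuoles, departed by 1.19, Lce1d, named for the cornified envelope of skin, by 1.13, and Cyp4f14, a cytochrome P450, by 1.03. Gar1, a protein of small nucleolar ribonucleoproteins, falls outside the naming rule because set 2 lacked a value, and was named after its values were seen. Its joint values were 2.41 and 2.64 in the 2 sets measured, against 0.35, -0.06 and 0.01 with LPS and 0.51 and 0.78 with IFNG.

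Most of these calls were lost in at least 1 of the fits that left out a set. Without set 1, and likewise without set 2, 3 features departed. Without set 3, 9 departed, 7 of them also called with all sets. The departures that no longer passed without set 1 were those of Sgk1 (2.86), F3 (2.30), Crem (1.19), Atg16l1 (0.93), Lce1d (1.09) and Cyp4f14 (1.05), and without set 2 those of Sgk1 (2.92), F3 (2.15), Ccl12 (2.00), Crem (1.31), Lce1d (1.17) and Cyp4f14 (1.03). Without set 3, Crem (1.33) and Cyp4f14 (0.99) no longer passed. With arrays scaled, Cxcl9 (1.88), F3 (1.79), Crem (1.00) and Lce1d (0.78) did not pass.

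**Figure D4:**
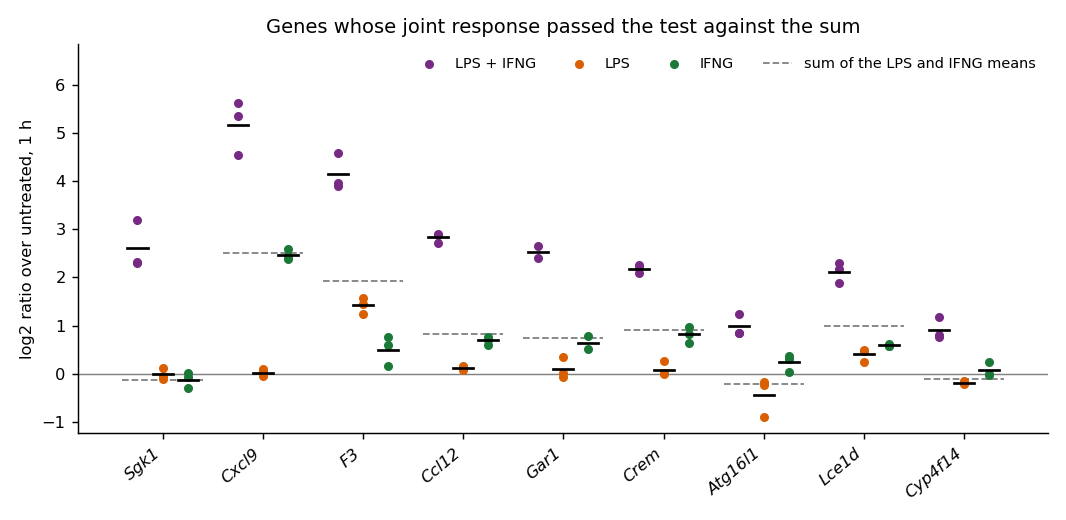
Log2 ratio over untreated at 1 h for the 9 genes whose joint response departed from the sum, in LPS with IFNG, LPS alone and IFNG alone from left to right within each gene, with 1 point per set, a bar at the mean and a dashed line at the sum of the LPS and IFNG means. The genes were picked by this departure, and every joint point lies above its dashed line. The margin is widest for Sgk1 (2.73) and Cxcl9 (2.67).

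Zfp36 and Pim1, chosen after their values were seen, lay below the sum without passing. Zfp36 averaged 3.76 with both ligands (2 sets), 2.96 ± 0.70 with LPS and 2.80 ± 0.10 with IFNG (SD, n = 3 each), so that each ligand alone gave most of the joint value, and the departure was -1.998 ± 0.49 (SE, adjusted p = 0.165 in limma). Pim1 averaged 2.96 ± 0.16 with both ligands, 2.73 ± 0.11 with LPS and 1.49 ± 0.11 with IFNG (SD, n = 3 each), a departure of -1.26 (adjusted p = 0.579 in limma).

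At 2 h with both ligands, 611 features (5.27%) differed from the 1 h response, 342 (2.95%) higher and 269 (2.32%) lower. Without set 1 there were 97, and with arrays scaled 201. At 4 h, 2141 (18.5%) differed from 1 h, 1022 (8.82%) higher and 1119 (9.65%) lower, with 1078 without set 1 and 1198 with arrays scaled. These comparisons share the 1 h arrays. Each array was read against untreated cells of its own time.

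Several immediate early genes were highest at 1 h. Btg2 averaged 4.22 ± 0.46 at 1 h, 1.18 ± 0.63 at 2 h and 0.42 ± 0.14 at 4 h (SD, n = 3 each), and Egr2 averaged 4.79, 2.14 and 0.91 at these times. Egr1 averaged 4.63, 1.59 and 2.72. Of the early response factors, 5 of 19 were lower and 1 higher at 2 h than at 1 h, and 10 lower and 2 higher at 4 h. Among all features, 2.32% were lower and 2.95% higher at 2 h, and 9.65% lower and 8.82% higher at 4 h. The counts of higher members lay near those shares and say nothing particular about the list. The differences between 2 h and 1 h in Egr1 (-2.99) and Egr2 (-2.71) did not pass without set 1, nor did that in Egr2 without set 3 (-2.41). With arrays scaled, neither Egr1 (-3.30) nor Egr2 (-2.97) passed.

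Other genes stayed high. Irf1 averaged 3.87, 3.81 and 3.45 at 1, 2 and 4 h, Tnf 3.39, 3.66 and 3.04, and Cxcl9 5.17, 5.58 and 5.77. The difference between 4 h and 1 h did not pass for Irf1 (-0.42, adjusted p = 0.33 in limma), and that of Cxcl9 was 0.60 (adjusted p = 0.0418 in limma).

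Further genes were low at 1 h and high later. Il6 averaged 0.33, 3.03 and 5.15 at 1, 2 and 4 h, Nos2 0.29, 2.28 and 3.67, and Slfn1, a growth regulator of the Schlafen family, 0.08, 1.38 and 3.82. Procr, the endothelial protein C receptor, which opposes the coagulation that F3 starts, averaged 0.09, 1.76 and 4.17, while F3 averaged 4.15, 5.49 and 5.01. Upp1, a uridine phosphorylase, averaged 0.26, 1.22 and 3.47, and the acute-phase protein Saa3 1.24, 3.19 and 5.28. Tested on their own at 1 h, the probes of Upp1 read 0.41, which passed, and 0.10, which did not, and those of Nos2 were likewise split. Otud1 averaged -1.03 ± 0.39 at 1 h, 1.48 ± 0.39 at 2 h and 1.17 ± 0.67 at 4 h (SD, n = 3 each), below untreated first and above it later. Of the type I interferon targets 11 of 17 were higher at 2 h and 14 at 4 h than at 1 h, and of the antigen presentation genes 6 of 16 and 12, with none lower in either list. Among all features, 2.95% were higher and 2.32% lower at 2 h, and 8.82% higher and 9.65% lower at 4 h.

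**Figure D5:**
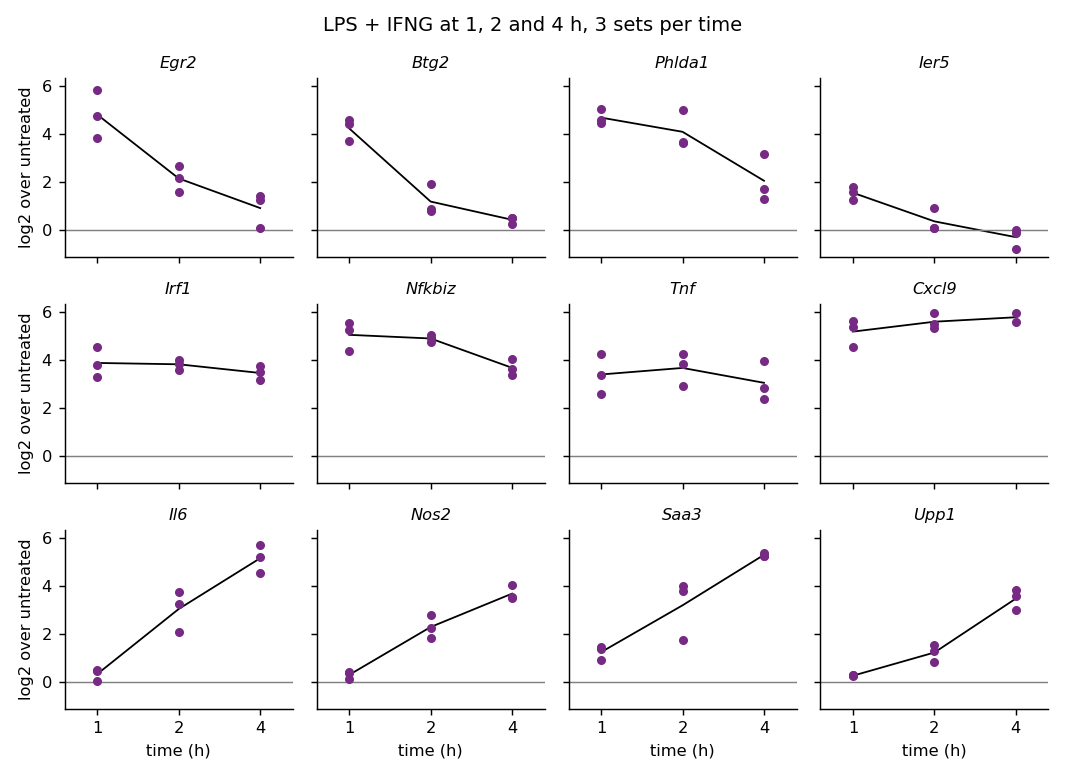
Log2 ratio of LPS with IFNG over untreated at 1, 2 and 4 h for 12 genes, 1 point per set, with a line through the means. Egr2, Btg2, Phlda1 and Ier5 are highest at 1 h, Irf1, Nfkbiz, Tnf and Cxcl9 stay between 3.04 and 5.77, and Il6, Nos2, Saa3 and Upp1 start at 0.26 to 1.24 and end at 3.47 to 5.28.

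Several known targets lacked values in other groups of the series and so were not among the 11593 features. With the filter set on this treatment and time alone, 412 further named genes entered. Since such genes can enter through the group in which they are high, no calls are counted among them and their values are given as a description only. Gbp2, a guanylate-binding protein, averaged 4.65 ± 0.50 (SD, n = 3), with set values of 5.13, 4.14 and 4.68. Rsad2, the antiviral enzyme viperin, read 3.68, the chemokines Cxcl11 3.47 and Ccl2 2.37, the GTPase Ifi47 2.56, the RNA sensor Ifih1 2.37 and the immediate early Ier2 2.27. Acod1, which makes itaconate, read 4.27 in 2 sets, and Nfkbia, the NF-kB inhibitor I-kappa-B alpha, 1.76 in 2 sets. Cxcl10 had a value on 4 of the 6 arrays, between 3.11 and 3.84, and was not tested.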

How the data were processed

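Gene expression was measured on 2-colour arrays, with treated and untreated RNA of 1 set and time on each array. The values are log2 ratios of Cy5 over Cy3 as deposited by the authors. Methods of background correction and normalization were not given in the sources used here. For each array the sign was turned by the dye of the treated RNA, per the labels. A value of exactly 0 was taken as missing, which left out between 1484 and 2773 of 16281 probes on each of the 6 arrays at 1 h. The labels' descriptions call the treated RNA the control, against the dyes they name, and the dyes were followed.

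From these, set values were computed as the mean of both dye orders, so that dye-swapped arrays count as 1 replicate. A probe was tested where each of the 16 groups had at least 2 of its 3 sets: 13698 of 16281 probes, or 11593 features after averaging the probes of a gene, 9755 of them named genes and 1838 unnamed probes. In limma 3.58.1 (R 4.3.3), 1 mean per group was fitted to the 48 set values, with empirical Bayes variances (residual df 32) and Benjamini-Hochberg adjustment over all features, two-sided, at an adjusted p of 0.05. The joint response was tested against 0, against each ligand, against their sum, and at 2 h and 4 h against 1 h. The method was tested on simulated data.

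Genes were named by rule: at 1 h the 15 largest rises and 10 largest falls with 1 sign on all 6 arrays, and in the other comparisons the 8 largest positive and 5 largest negative differences with 1 sign in all 3 sets. List members were named with their list. The members and lists were chosen with earlier results of these data known.

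Same-numbered sets of the compared groups deviated together: the correlation of deviations was between 0.199 and 0.707 in all 3 pairs of LPS with IFNG and LPS, and between 0.109 and 0.585 in all 3 pairs with IFNG. It was above 0.1 in 9 of 9 pairs for the departure. It was not in every pair for 2 h (-0.258 to 0.554) and 4 h (-0.258 to 0.286). Alternatives were a set block, a dye term, each dye order alone, scaling, filters, single probes and leaving out each set. Promoter windows, from 250 bases before to 50 after each start, were taken from RefSeq on GRCm38.p6.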

Additional observations from a re-analysis of the deposited data

Results flagged for a closer look

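Of 153 genes checked on the 6 arrays of LPS with IFNG at 1 h, 6 had 1 array far from the other 5, where chance flags about 1 in 20. Bbs10 read -1.91 in set 3 with treated RNA in Cy5, against -0.53 for the nearest array. Myc read 2.74 in set 2 with treated RNA in Cy3, against 2.16. Procr read -0.17 in set 1 with treated RNA in Cy5, against 0.09. Arg2, an arginase, read 1.20 in set 1 with treated RNA in Cy3, against 0.63. Mx1, an antiviral GTPase, read 1.40 in set 3 with treated RNA in Cy5, against 0.80. Tlr4 read -1.03 in set 2 with treated RNA in Cy5, against -0.53.

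The joint response differed with time by a test of the difference itself, in 611 features at 2 h and 2141 at 4 h against 1 h (limma, adjusted p under 0.05). At 2 h the genes furthest above their 1 h value were Il6 (2.71), Otud1 (2.51), Il1b (2.41), Ifit2 (2.29), Cmpk2 (2.21), Nfkbie (2.21), Ocstamp (2.16) and Gbp8 (2.08). Those furthest below were Btg2 (-3.04), Egr1 (-3.04), Egr2 (-2.66), Ddit4 (-1.81) and Pax6 (-1.70). At 4 h those furthest above were Il6 (4.82), Ifit2 (4.08), Procr (4.08), Saa3 (4.05), Slfn1 (3.74), Cfb (3.40), Nos2 (3.38) and Upp1 (3.21), and those furthest below were Egr2 (-3.89), Btg2 (-3.80), Ddit4 (-2.73), Phlda1 (-2.63) and Herpud1 (-2.34). Between 2 h and 1 h, Ifit2 (2.13), Egr1 (-2.99), Egr2 (-2.71) and Ddit4 (-1.29) did not pass without set 1, nor did Ifit2 without set 2 (2.09) or Egr2 without set 3 (-2.41). With arrays scaled, Il1b (1.69), Cmpk2 (1.56), Gbp8 (1.57), Egr1 (-3.30), Egr2 (-2.97) and Ddit4 (-1.70) did not pass.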

How the results depend on the processing

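The number of sets limits precision, and array values carry no counts. With the set number as a block, which the numbering of sets allows, 1565 features were called in the joint response, 506 against IFNG, 24 in the departure from the sum and 1362 at 2 h against 1 h, and the totals against LPS (173) and at 4 h against 1 h (3152) moved by less than 1.5 times. Lower calls numbered 16 against LPS and 178 against IFNG with the block, beside 5 and 83 without it. In the lists, higher calls with the block were 5 in antigen presentation and 2 in macrophage genes, and lower calls were 3 in receptors, 2 in glycolysis and 1 in housekeeping. With treated RNA in Cy5 only, 2589 were called in the joint response (47.4% upwards, against 58.1%), 19 in the departure and 389 at 2 h against 1 h. With treated RNA in Cy3 only, 165 were called against IFNG, 5 in the departure and 312 at 2 h against 1 h. The departure had 15 calls with its groups fitted alone, 23 with a dye term and 14 with every probe on its own. The difference between 2 h and 1 h had 260 with its groups fitted alone and 201 with arrays scaled, and that between 4 h and 1 h had 1198 with arrays scaled. Leaving out each set in turn gave 445 to 795 calls in the joint response, 67 to 104 against LPS, 113 to 230 against IFNG, 3 to 9 in the departure, 97 to 461 at 2 h against 1 h and 1078 to 1906 at 4 h against 1 h. The fewest in each came without set 1. For the departure, as few came without set 2. Each of the fits that left out a set had fewer sets alike, and for no setting was the cause of the change tested. A change of sign was counted as a turn only where the main or the alternative fit passed. Of 4508 gene results under these and the remaining alternatives, 4193 kept their side of the threshold without such a turn. Of the rest, 303 lost the call, 8 gained one and 4 turned. Those that turned were Lif, at -0.0097 both with values required in all 3 sets and with every probe on its own, Tlr4, at 0.0401 for 1 of its probes, and Ccne2, at 0.0547 with treated RNA in Cy3 only. Accepting 1 dye order per set, an alternative chosen after seeing the data, kept 298 of 304 gene results and lost 6.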
